A study of Mus musculus with 6 samples.

Results

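The genes described here encode the proteins of the small (40S) subunit of the cytosolic ribosome. They were taken as the rows of the deposited expression table whose symbols equal a fixed list of small-subunit proteins, with Fau. All 28 listed symbols were found among 12331 rows, and all 28 were above 1 RPKM (reads divided by gene length in kilobases and by the library's alignment total) in every library. The libraries were made from mouse embryonic stem cells of the line E14tg2a, kept in serum medium with LIF, a cytokine that holds them undifferentiated. In 3 libraries the cDNA was cut and tagged by hyperactive Tn5 transposase (tagmentation), and in 3 it was sheared by sonication and ligated to adaptors. All 6 started from 10 pg of total RNA, an amount like that of 1 cell, which was primed with oligo(dT) and went through 20 cycles of cDNA amplification. The protocol describes kit extraction from the cultured line. The replicates were technical and numbered 1 to 3 in each method, so a p-value here reflects library-to-library spread and no spread between cultures.

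The small subunit binds messenger RNA, scans it for the start codon and reads each codon against the transfer RNA. Its proteins surround the 18S ribosomal RNA, are each present in a single copy per subunit and are made in large amounts in growing cells such as stem cells. Their genes lie on many chromosomes, and many have processed pseudogenes, copies of the messenger RNA in the genome.

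The libraries held between 18852822 and 34681566 alignments, with 21007424, 34612028 and 34681566 in tagmentation libraries 1 to 3, against 30296557, 22002643 and 18852822 in sonication libraries 1 to 3. Of 12 embryonic stem cell markers, 12 reached 1 RPKM in at least 1 library, and their summed level was 1869 to 2659.9 RPKM in the tagmentation libraries, against 1458 to 2949 RPKM in the sonication libraries. Nanog, one of the defining factors, was at 0 in at least 1 library and reached 8.39 RPKM. Of 17 fibroblast and differentiation markers 10 had a row, 3 reached 1 RPKM, and their summed level was 9.93 to 91.1 RPKM after tagmentation, against 7.51 to 67.5 RPKM after sonication. T, a factor of early mesoderm, reached 83.2 RPKM and was the highest of them. Libraries of the same number were alike across all genes whichever way they were made, and those of different numbers were less alike, so each result is given by number as well as by method.

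Sequence around the transcription start was read from RefSeq (mouse build GRCm38.p6, not the mm9 build named for the expression values) for 24 of the 28 genes. Rps14, Rps20, Rps27a and Rps29 were not among them. The 6 stretches below run from 150 bases before to 20 bases after the start. They are shown because they come from genes with opposite patterns between replicate numbers, the first 3 highest in number 1 and the last 3 lowest in it. They were picked from each side for carrying the ETS core, the most common of only 3 motifs searched. Among the carriers, those with the smallest p in the test between numbers given below were taken. Where a gene had several starts, the most upstream was used. Capitals mark the ETS core (CTTCCG, or CGGAAG on the other strand), the YY1 motif (AAGATGGC or GCCATCTT) and a TATA box (TATAAA or TTTATA).
Rps27, chr3:90213629-90213798, minus strand: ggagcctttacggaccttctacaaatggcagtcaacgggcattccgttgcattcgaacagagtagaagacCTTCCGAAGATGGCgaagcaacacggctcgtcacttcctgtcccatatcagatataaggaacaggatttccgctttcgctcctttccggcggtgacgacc
Rps15a, chr7:118116128-118116297, minus strand: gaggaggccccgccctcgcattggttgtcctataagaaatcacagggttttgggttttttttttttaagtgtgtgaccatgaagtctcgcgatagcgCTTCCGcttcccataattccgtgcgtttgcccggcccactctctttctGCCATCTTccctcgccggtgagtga
Rps25, chr9:44407564-44407733, plus strand: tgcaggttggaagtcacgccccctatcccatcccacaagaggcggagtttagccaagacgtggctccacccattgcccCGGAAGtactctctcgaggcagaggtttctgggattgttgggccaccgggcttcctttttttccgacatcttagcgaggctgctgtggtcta
Rps10, chr17:27635225-27635394, minus strand: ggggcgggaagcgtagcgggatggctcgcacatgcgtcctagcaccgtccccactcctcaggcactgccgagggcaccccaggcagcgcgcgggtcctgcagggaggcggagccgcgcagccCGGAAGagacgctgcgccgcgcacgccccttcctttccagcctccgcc
Rps2, chr17:24719913-24720082, plus strand: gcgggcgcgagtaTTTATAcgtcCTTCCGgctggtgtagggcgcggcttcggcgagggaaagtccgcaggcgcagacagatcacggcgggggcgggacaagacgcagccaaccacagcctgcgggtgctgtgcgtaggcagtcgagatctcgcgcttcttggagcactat
Rps15, chr10:80292281-80292450, plus strand: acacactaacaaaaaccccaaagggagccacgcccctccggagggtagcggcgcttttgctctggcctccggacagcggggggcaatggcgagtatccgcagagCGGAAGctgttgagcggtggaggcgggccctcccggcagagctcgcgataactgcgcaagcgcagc

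In windows of 300 bases (250 before and 50 after the start), searched on both strands, the ETS core occurred in 18 of 24 small-subunit genes, 75%. The same letters occurred in 17.2% of the windows of 27025 genes and in 38% of those of 4502 genes tested here. The YY1 motif occurred in 3 of 24 (12.5%), namely Rps15a, Rps27 and Fau, against 2.87% of all windows and 6.24% of those of tested genes. In Rps27 it begins right after an ETS core. The TATA letters occurred in 2 of 24 (8.33%), Rps2 and Rps28, against 14.2% of all windows and 6.42% of those of tested genes. Among genes that were highest in number 1, the ETS core was in 3 of 5 windows, and among those lowest in number 1 it was in 4 of 6, so the letters were found on both sides. A match describes the letters and not a bound site.

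The most abundant small-subunit transcripts per length were the same few in all libraries. Rps20, which is ubiquitinated on stalled ribosomes, was the highest gene in the 3 tagmentation libraries, with 2070.2, 3132 and 3022 RPKM, against 2223, 2563 and 1917 RPKM in the sonication libraries. Rps26, a protein of the mRNA exit channel, had 1379, 2517 and 2806 RPKM after tagmentation, against 2241, 2858 and 3038 RPKM after sonication, where it led in libraries 1 and 3. Rps9, whose bacterial counterpart binds ribosomal RNA early in assembly, had 1311, 2989 and 2488 RPKM after tagmentation, against 2154, 3039.7 and 2357 RPKM after sonication, and led in sonication library 2. In Rps26 and Rps9 tagmentation library 1 was the lowest of the 6, and in Rps20 sonication library 3 was. On average 8 genes were above 1000 RPKM, 18 were between 100 and 1000 RPKM and 2 were under 100 RPKM. The 5 highest genes of a library took 43.0 to 49.3% of the small-subunit sum after tagmentation, against 42.8 to 49.1% after sonication.

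**Figure D1:**
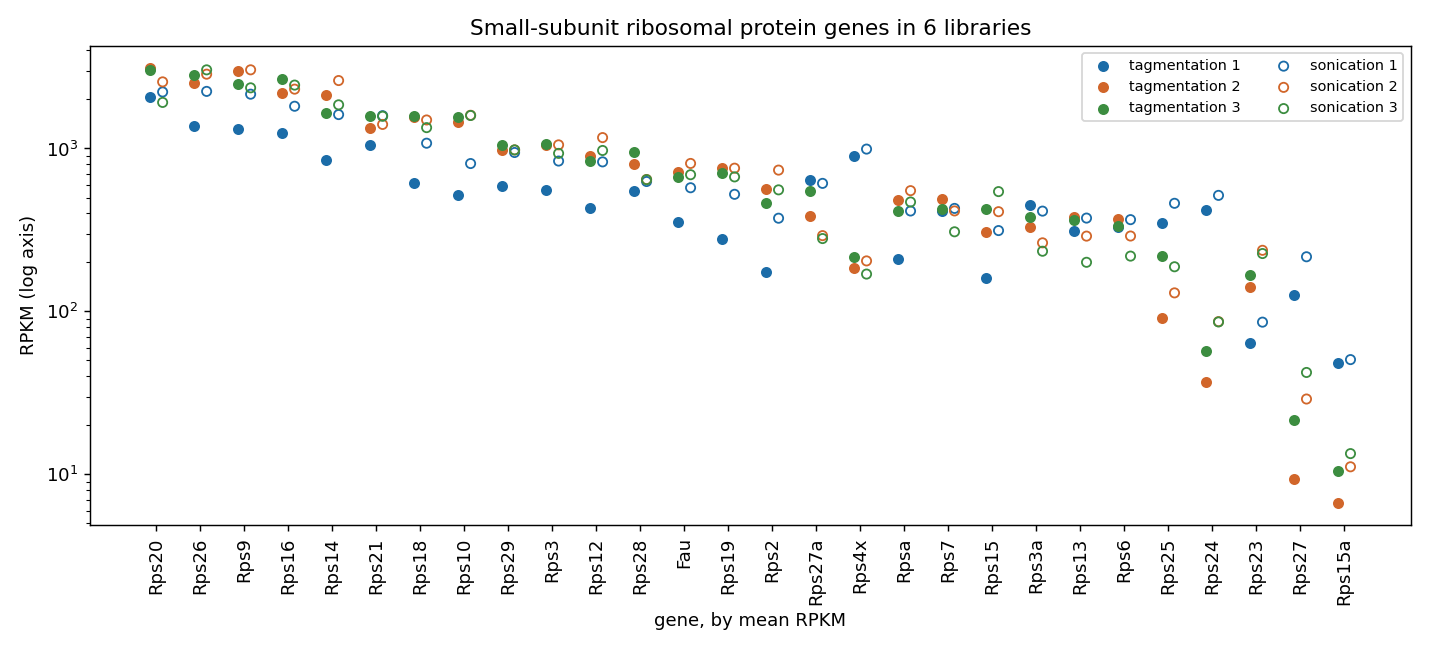
RPKM (log axis) of the 28 small-subunit genes, ordered by their mean, in each library; filled points are tagmentation and open points sonication libraries, and colours mark the replicate number. Most genes have tagmentation library 1 at the bottom, while Rps4x, Rps25, Rps24, Rps27, Rps15a, Rps27a and Rps3a have both libraries of number 1 on top.

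The 2 lowest genes were Rps15a and Rps27. Rps15a had 48.4, 6.68 and 10.4 RPKM after tagmentation, against 50.6, 11.1 and 13.4 RPKM after sonication, and was the lowest of the 28 in every library. Its level depends on the length it was divided by. The steps between its RPKM values gave a gene model of 5134 bases, while the steps of 21 other members gave 327 (Rps28) to 1861 bases (Rpsa). Annotated Rps15a transcripts are 250 to 640 bases long, apart from 2 of 5130 and 5179 bases. In reads, Rps15a had 5223, 1187 and 1856 after tagmentation, against 7874, 1257 and 1298 after sonication. A length was found for 22 of the 28 genes (reads whole within 0.15), and single values of these genes rested on 1187 to 72718 reads. Rps3, Rps23, Rps24, Rps27, Rps27a and Fau gave none.

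The first comparison asked whether small-subunit transcripts were measured at other levels after tagmentation than after sonication. None of the 28 genes was called, and their log2 fold changes (tagmentation over sonication, on log2(RPKM + 1), used throughout) ran from -1.08 to 0.48 with standard errors of 0.29 to 1.03. Their median was -0.23 and 20 of 28 (71.4%) were below 0, against a median of 0.028 and 47.3% below 0 over all 6327 genes tested. The levels are of RNA pooled from cells, so the number of expressing cells and the RNA per cell cannot be told apart in them. In limma's test (Benjamini-Hochberg adjusted) 0 of 6327 genes passed, 0%, with 18 at an unadjusted p under 0.05 and no member among them. The smallest unadjusted p of a member was 0.194, for Rps12, and all adjusted p were 1.00. The libraries of both methods overlapped in all 28 genes. Over all genes 152 did not overlap, 2.4%. This fit also missed all changes put into simulated data, which were drawn from the fit with the replicate number as a block. That blocked fit recovered the changes in part. The lack of calls in the unblocked fit therefore does not show equal levels, and members of 1 library share its scaling.

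The members' ratios were lowest in number 1. In number 1, 26 of 28 genes (92.9%) were lower after tagmentation than after sonication, with a median log2 ratio of -0.60. In number 2, 18 of 28 were lower and the median was -0.10, and in number 3, 12 of 28 were lower and the median was 0.076. The median ratio of all genes tested was -0.072, 0.079 and 0.20 in numbers 1, 2 and 3. Among 531 other genes whose mean was at least 100 RPKM it was -0.38, 0.13 and 0.40, so these too were low in tagmentation library 1. The members' median lay below that of these abundant genes in every number. Without tagmentation library 1 the members' median log2 fold change turned to 0.036, against 0.087 for all genes tested. Tagmentation library 1 had 21007424 alignments, against 30296557 in sonication library 1, and the part of depth in the result was not tested.

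**Figure D2:**
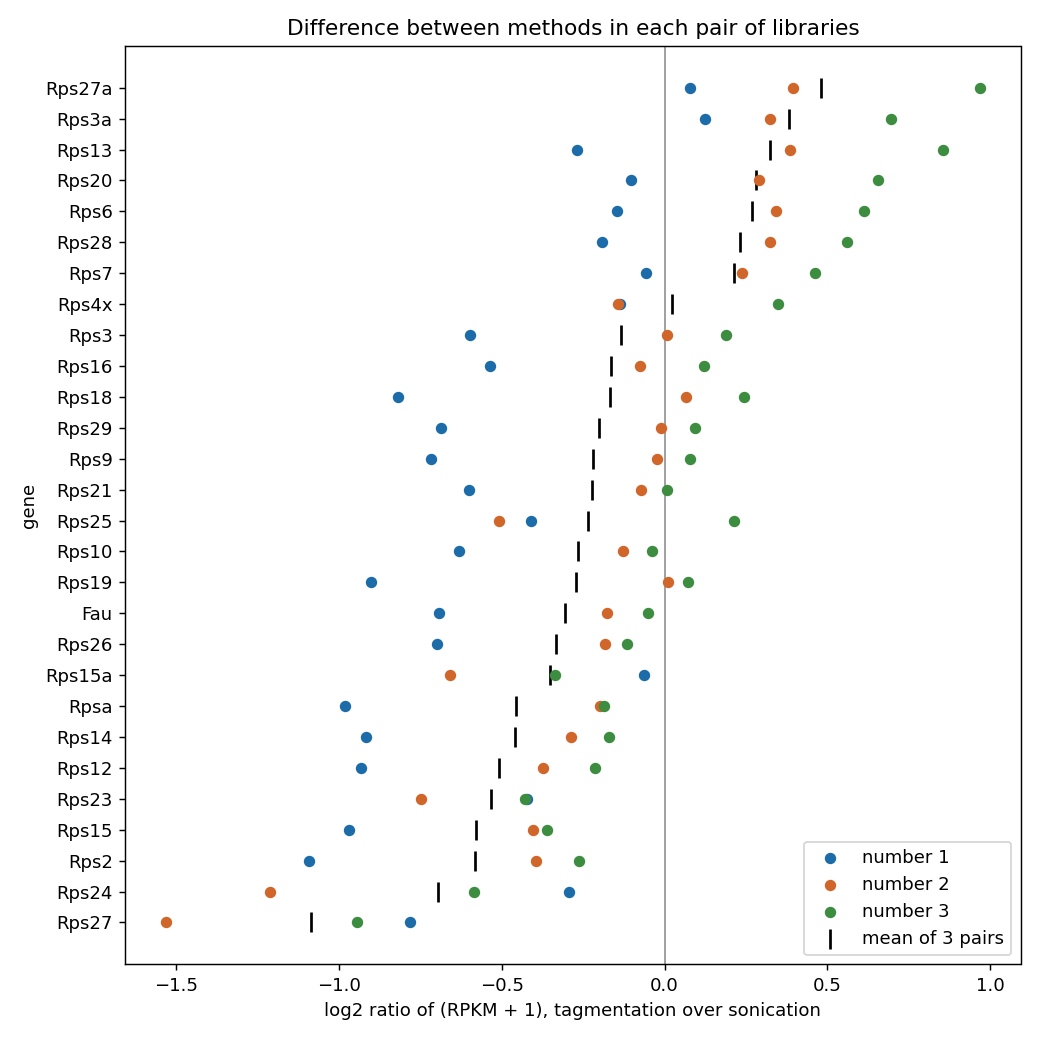
Log2 ratio of RPKM + 1, tagmentation over sonication, for each small-subunit gene in each pair of libraries with the same number (coloured points), with the mean of the 3 pairs as a bar. Number 1 lies left of 0 for 26 of 28 genes, and number 3 lies to the right of it for 16.

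At the low end stood Rps27, Rps24 and Rps2. Rps27, a zinc finger protein, had 126, 9.39 and 21.4 RPKM after tagmentation, against 216, 29.0 and 42.2 RPKM after sonication. It was lower after tagmentation in each pair, by more in numbers 2 and 3 where its level was low, and both number 1 libraries exceeded the other 4. Its log2 fold change was -1.08 (SE 1.03, limma adjusted p 1.00). With the replicate number as a block it was the only member called (SE 0.30, limma adjusted p 0.0194). That p was 0.00964 without number 1, and 0.999 and 0.433 without number 2 or number 3. In the blocked fit of all 6 libraries 209.7 of 211.7 degrees of freedom were borrowed from all genes. Its SE therefore hardly reflects the gene's own spread. The block called 208 of 6327 genes, 3.29%, of which 108 were lower, 1.71%. The share of the 28 genes was 3.57%, near that background, and 5, 0 and 0 of them were called without numbers 1, 2 and 3. The next gene was Rps24, a protein needed for early 18S ribosomal RNA processing and mutated in human Diamond-Blackfan anemia. It had 421, 36.9 and 57.1 RPKM after tagmentation, against 515, 86.6 and 86.2 RPKM after sonication. It was lower in each pair, with a log2 fold change of -0.70 (SE 0.95), and was not called with the block (limma adjusted p 0.201). Rps2, a protein of the mRNA entry channel, had 175, 561 and 464 RPKM after tagmentation, against 373, 737 and 557 RPKM after sonication. It too was lower in each pair, with a log2 fold change of -0.58 (SE 0.48), not called.

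At the high end stood Rps27a, Rps3a and Rps13. Rps27a, made as a fusion of ubiquitin with the ribosomal protein, had 645, 384 and 549 RPKM after tagmentation, against 611, 292 and 280.0 RPKM after sonication (log2 fold change 0.48, SE 0.41). Rps3a, which lies on the side of the subunit bound by initiation factor eIF3, had 450.0, 330.2 and 380 RPKM after tagmentation, against 413, 264 and 234 RPKM after sonication (0.38, SE 0.37). These were the only 2 genes with a higher value after tagmentation in all 3 pairs. Rps13, a protein near the bridge to the large subunit, had 310.3, 379 and 363 RPKM after tagmentation, against 374, 289.9 and 200.2 RPKM after sonication (0.32, SE 0.37). It was lower after tagmentation in number 1 and higher in numbers 2 and 3. Over the 28 genes, 12 were lower in all 3 pairs, 2 were higher in all 3 and 14 were mixed.

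The spread over the 3 libraries of a method was wider after tagmentation for 21 of 28 genes, against 4223 of 6327 genes tested and 329 of the 531 other abundant genes. The median SD on the log2 scale was 0.60 after tagmentation and 0.31 after sonication. Over all genes tested it was 1.32 after tagmentation and 1.17 after sonication, and over the 531 other abundant genes it was 0.63 after tagmentation and 0.54 after sonication. Rps28, which meets the mRNA at the exit channel, was the most even after sonication, with 549, 807 and 949 RPKM after tagmentation, against 627, 645 and 643 RPKM after sonication. Rps29, a small zinc-binding protein, had 587, 972 and 1046 RPKM after tagmentation, against 945, 980.3 and 979.8 RPKM after sonication. In both genes tagmentation library 1 was the lowest of the 6.

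The second comparison was between replicate numbers, with the method as a term. The labels do not say what a number stands for, so cDNA, amplification and day cannot be told apart. The error was that of the blocked fit, mostly borrowed from all genes. It rests on how the methods differ within numbers, so very small p-values should be read with that in mind. Of the 28 genes, 13 were called by limma's F test (Benjamini-Hochberg adjusted), 46.4%, against 88.1% of all genes tested and 61% of the 531 other abundant genes. Without both libraries of number 1, 2 or 3 the count was 4, 4 and 10. The median range between the means of the 3 numbers was 0.82 on the log2 scale for the 28 genes, against 2.38 for all genes tested. A 4-fold range was reached by 4 of the 28 (Rps27, Rps24, Rps15a and Rps4x), against 3704 of 6327 genes and 74 of the 531 other abundant genes, a share like that of the 28. The median range of those 531 genes was 1.06. The median level was 547 RPKM for the 28 genes, against 14.8 RPKM for all genes tested, and the part of the level in this difference was not tested.

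The genes split by direction. Of the 13, 6 were highest in number 1 (Rps4x, Rps15a, Rps24, Rps25, Rps27 and Rps27a) and 7 were lowest in it (Rps2, Rps10, Rps14, Rps15, Rps18, Rps19 and Rps23). Counted over all 28, both libraries of number 1 lay above the other 4 in 7 genes, against 30.8% of all genes tested, and below the other 4 in 14 genes, against 28.3% of all genes tested. The remaining 7 overlapped. By the mean of each number, 18 of the 28 genes were lowest in number 1, against 273 of the 531 other abundant genes. Of those 531, 83 were called and highest in number 1, and 185 were called and lowest in it. Of 47 large-subunit genes, 7 were called and highest in number 1, and 9 were called and lowest in it. The same 13 genes were called in the same directions with median-ratio scaling and with quantile normalization, beside 10 and 12 others. With a pseudocount of 0.1, 10 were called, and Rps27a, Rps14 and Rps18 were not among them. The median of all genes in number 1 over numbers 2 and 3 was 0.18, and it moved to -0.11 with median-ratio scaling and to -0.14 with quantile normalization.

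**Figure D3:**
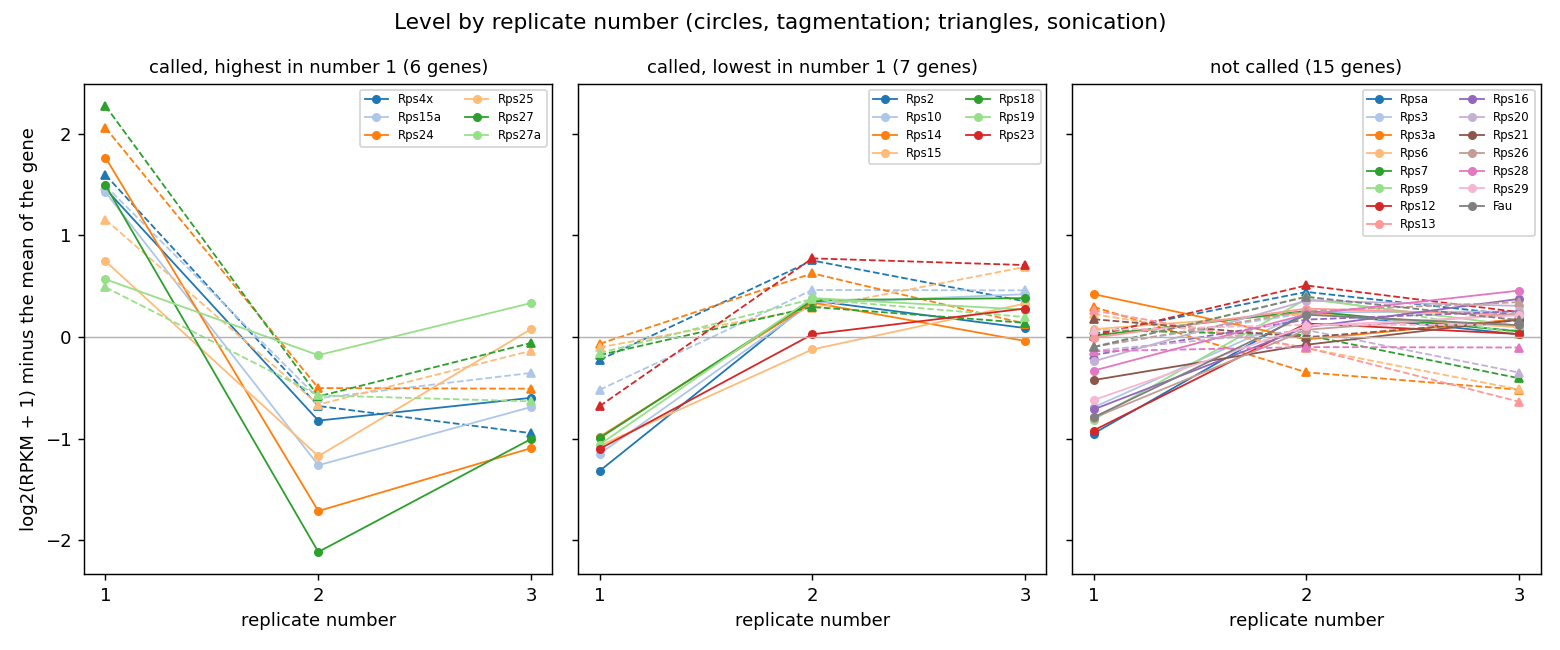
Log2(RPKM + 1) of each small-subunit gene minus its mean over 6 libraries, by replicate number, for genes called highest in number 1 (left), called lowest in number 1 (middle) and not called (right); circles with solid lines are tagmentation and triangles with dashed lines sonication libraries, and lines only join libraries of 1 method. The 6 genes on the left have both libraries of number 1 above their mean, and the 7 in the middle have both below it.

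Among genes high in number 1, Rps27 and Rps24, with the values given above, had 23.1-fold and 13.99-fold ranges over the 6 libraries. The number 1 mean of Rps27 was 2.82 above that of numbers 2 and 3 on the log2 scale (limma adjusted p 7.13e-16), and that of Rps24 was 2.87 above (limma adjusted p 2.54e-15). Rps4x, the X-linked copy of ribosomal protein S4, had 902, 185 and 216 RPKM after tagmentation, against 991, 204 and 170 RPKM after sonication. Both libraries of number 1 stood far above the other 4, while the methods were close within each pair (log2 fold change 0.022, SE 0.76). The number 1 mean was 2.29 higher (limma adjusted p 1.83e-10). Rps15a followed the same order, with its values above and a number 1 mean 2.18 higher (limma adjusted p 2.41e-10). Rps25, needed for translation from some viral internal entry sites, had 347, 91.1 and 218 RPKM after tagmentation, against 461, 129.97 and 188 RPKM after sonication. Number 1 was highest and number 2 lowest in both methods (1.42 higher in number 1, limma adjusted p 7.64e-06). Rps27a was 0.79 higher in number 1 (limma adjusted p 0.0456). Its tagmentation library 3 was close to number 1, so the order was less clear than in the others.

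Among genes low in number 1, Rps23, a protein of the decoding centre that bears on the accuracy of translation, had 63.9, 141 and 168 RPKM after tagmentation, against 85.9, 237 and 227 RPKM after sonication. Its number 1 mean was 1.34 below that of numbers 2 and 3 on the log2 scale, a difference of -1.34 (limma adjusted p 0.000256). Rps10, ubiquitinated like Rps20 on stalled ribosomes, had 522, 1462 and 1553 RPKM after tagmentation, against 808, 1599 and 1594 RPKM after sonication (-1.25, limma adjusted p 0.000723). In both genes each number 1 library lay below all of the other 4. Rps2, with the values given above, differed by -1.16 (limma adjusted p 0.00143).

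Rps15, needed in human cells for export of the maturing subunit from the nucleus, had 160, 309 and 423 RPKM after tagmentation, against 314, 409 and 544 RPKM after sonication (-0.88, limma adjusted p 0.0143). Its sonication library 1 overlapped tagmentation library 2, so the groups of numbers were not separate. Rps19, the first gene found mutated in human Diamond-Blackfan anemia, had 280, 762 and 704 RPKM after tagmentation, against 523, 757 and 669 RPKM after sonication (-0.91, limma adjusted p 0.0197). Rps18, in the head of the subunit, had 611, 1567 and 1590 RPKM after tagmentation, against 1077, 1496 and 1343 RPKM after sonication (-0.88, limma adjusted p 0.027). Rps14, whose loss of 1 copy marks the human 5q- syndrome, had 855, 2140 and 1646 RPKM after tagmentation, against 1615, 2612 and 1853 RPKM after sonication (-0.79, limma adjusted p 0.0281). In these last 3 genes both libraries of number 1 were below the other 4, and tagmentation library 1 was the lowest by far.

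The 15 other genes had ranges of 0.29 to 0.84 between numbers and adjusted p of 0.0784 to 0.73 in limma's F test. Closest to the threshold was Rps9, with the values given above and a range of 0.84. Rpsa, also known as the laminin receptor, had 209, 480 and 412 RPKM after tagmentation, against 413, 551 and 469 RPKM after sonication, with only tagmentation library 1 standing low. Rps12 had 433, 900 and 838 RPKM after tagmentation, against 828, 1166 and 972 RPKM after sonication. Rps16 had 1253, 2196 and 2665 RPKM after tagmentation, against 1817, 2313 and 2450 RPKM after sonication. Rps12 and Rps16 had both number 1 libraries below the other 4, as had Rps3, Rps26, Fau, Rps9, Rps28 and Rps29.

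Fau, made as a ubiquitin-like protein fused to ribosomal protein S30, had 355, 716 and 666 RPKM after tagmentation, against 574, 810 and 690.3 RPKM after sonication. Rps3, at the mRNA entry and also known from DNA repair, had 553, 1058 and 1064 RPKM after tagmentation, against 837, 1052 and 933 RPKM after sonication. In both, tagmentation library 1 was the lowest. The most even genes over the numbers were Rps21, Rps7, Rps13 and Rps6. Rps21 had 1049, 1335 and 1585 RPKM after tagmentation, against 1589, 1405 and 1577 RPKM after sonication. Rps7, which in human cells also binds the p53 regulator MDM2, had 412, 488 and 424 RPKM after tagmentation, against 429, 414 and 308 RPKM after sonication. Rps6, the target of the S6 kinases downstream of mTOR, had 330.2, 368 and 334 RPKM after tagmentation, against 366, 290.2 and 219 RPKM after sonication. Rps7 and Rps6 stayed within 1.58-fold and 1.68-fold over the 6 libraries, a smaller range than that of most of the 28.

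Summed over the 28 genes, the level was 16407, 26322 and 26663 RPKM in tagmentation libraries 1 to 3, against 23472, 27242 and 24554 RPKM in sonication libraries 1 to 3. The mean was 23131 ± 5825 RPKM after tagmentation and 25089 ± 1941 RPKM after sonication (SD, n = 3 each). Within pairs the sum was lower after tagmentation in numbers 1 and 2 and higher in number 3. The sum was 5.40, 6.86 and 7.42% of all RPKM after tagmentation, against 6.61, 7.55 and 8.51% after sonication, and was lower after tagmentation in all 3 pairs. Set over the sum of 47 large-subunit genes, it gave a ratio of 0.604, 0.629 and 0.712 after tagmentation, against 0.603, 0.602 and 0.659 after sonication. It was higher after tagmentation in all 3 pairs, by very little in number 1. Number 3 was the highest in both methods. The ratio moved less between libraries than the sum did, including in tagmentation library 1, where both subunits were low. The 6 genes called highest in number 1 made up 15.2, 2.71 and 4.02% of the small-subunit sum after tagmentation, against 12.1, 2.76 and 3.17% after sonication.

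**Figure D4:**
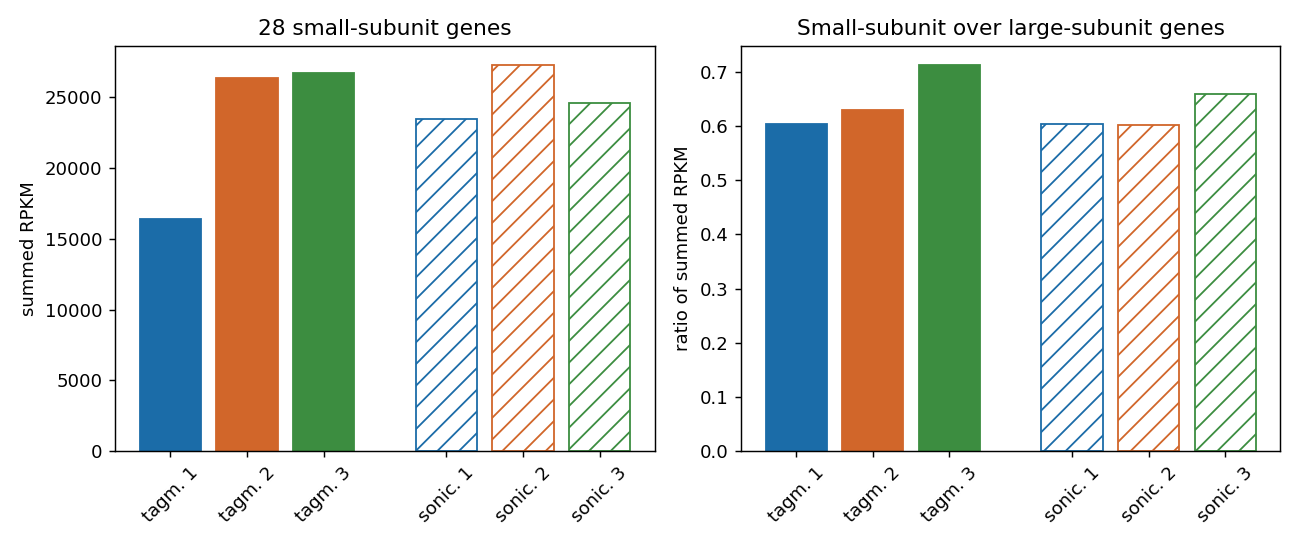
Summed RPKM of the 28 small-subunit genes (left) and its ratio to the summed RPKM of 47 large-subunit genes (right) in each library; plain bars are tagmentation and hatched bars sonication, and there is no error bar because each bar is 1 library. The sum is lowest in tagmentation library 1, at 16407 RPKM, while the ratio there is 0.604, within the range of 0.602 to 0.712 of all libraries.

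Across the 28 genes, number 1 stood apart from numbers 2 and 3 whichever method was used. The Pearson correlation of log2 levels was 0.962 between tagmentation library 1 and sonication library 1. It was 0.727 to 0.843 between either of these and the other 4 libraries, and 0.963 to 0.99 among those 4. These describe 28 genes that share each library's depth and composition, and genes are not independent replicates.

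Large-subunit genes gave the nearest comparison. Of 47, none was called between methods. Their median log2 fold change was -0.094. In number 1, 42 of 47 were lower after tagmentation, with a median of -0.48, so the low level of tagmentation library 1 was shared by both subunits. Between numbers 16 of 47 were called, 34%.

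Of 50 factors that assemble the small subunit in the nucleolus and cytoplasm, 44 were tested and none was called between methods. With the block 3 were called. Fcf1, the homolog of a yeast protein of the early processing complex, was lower after tagmentation (log2 fold change -1.67, SE 0.30, limma adjusted p 3.70e-05), with 86.9, 1.94 and 2.38 RPKM after tagmentation, against 103, 13.1 and 18.1 RPKM after sonication. Utp3 was lower (-0.96, SE 0.29, limma adjusted p 0.0358), with 38.4, 0.361 and 0.054 RPKM after tagmentation, against 33.1, 3.35 and 1.82 RPKM after sonication. It was higher after tagmentation in number 1. In Fcf1 and Utp3 the larger differences lay in numbers 2 and 3, where levels were low, as they did in Rps27. Wdr43 was higher (1.04, SE 0.30, limma adjusted p 0.0283), with 40.8, 100.3 and 185 RPKM after tagmentation, against 25.5, 53.7 and 61.3 RPKM after sonication.

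Of 28 initiation factors that act on the small subunit, none was called between methods. With the block 1 was called, Eif4e, the cap-binding protein, which was lower (-1.15, SE 0.30, limma adjusted p 0.0133). It had 107, 0.652 and 1.11 RPKM after tagmentation, against 78.8, 5.66 and 6.68 RPKM after sonication, and was higher after tagmentation in number 1 only. Between numbers 38 of 44 assembly factors (86.4%) and 19 of 28 initiation factors (67.9%) were called, against 13 of 28 small-subunit genes. The median levels of these lists were 23.1 and 114 RPKM, against 547 RPKM for the small-subunit genes.

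Copies or paralogs were looked up for 3 of the genes, after the values had been seen. Those of the other members were not looked up. Rps4y2 is a second S4 row, which RefSeq lists as the transcribed pseudogene Rps4l. It had 208, 558 and 491 RPKM after tagmentation, against 444, 801 and 686 RPKM after sonication. It was lowest in number 1, the opposite of Rps4x. Rps27l, a paralog of Rps27, had 1002, 1137 and 1070.1 RPKM after tagmentation, against 838, 627 and 386 RPKM after sonication, and its methods did not overlap, unlike those of Rps27 (log2 fold change 0.86, SE 0.35, limma adjusted p 1.00). Rps19-ps3, a pseudogene of Rps19, had 207, 403 and 369 RPKM after tagmentation, against 201, 308 and 227 RPKM after sonication, and was low in number 1 like Rps19. How reads with several matches were shared out is not given in the sources used here. The levels of Rps4x, Rps27 and Rps19 are uncertain to that extent. Levels of other members that have copies may be uncertain in the same way.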

How the data were processed

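RPKM values per gene were deposited by the authors in 1 table with 6 library columns, and per the file headers each column came with its number of alignments. The submitters' processing notes name mm9, CASAVA 1.7.0 and Partek, with no role for each. No source used here gives the aligner or the annotation. Per the labels' protocols, 100 ng of cDNA was tagmented at 55 °C for 5 min, with 13 further PCR cycles. The reads carry no molecular identifiers, so PCR copies are counted as separate reads.

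Values were tested as log2(RPKM + 1) for the 6327 genes that reached 1 RPKM in 3 libraries or more. On this scale the change of low genes is understated. Testing used limma 3.58.1 under R 4.3.3 (eBayes with a trend, two-sided, Benjamini-Hochberg over all genes, threshold 0.05), with the method as the only term. Checked on simulated data, it found none of the changes put in, while the fit with the replicate block found most of them. The simulated levels and spread were drawn from the blocked fit itself. The check therefore favoured that fit and does not show how well it does on the real libraries. Tables were made with Python 3.11.15 and pandas 2.3.3. Lengths and reads came from the steps between RPKM values and the alignment totals.

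The 2 libraries of a number deviated together from the method means (r of 0.952, 0.969 and 0.934 over genes), so the numbers were taken as pairs. Deviations within a method sum to 0, which pushes the other correlations below 0. The labels do not say that same-numbered libraries share a cDNA. No value above 0 was identical between libraries.

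The members, lists and tests were chosen with earlier results of these data known. All 28 members are given. Those given in full were called in a fit, were the 3 highest or 3 lowest by mean level or by fold change, or had the 3 largest ranges. Genes of other lists are named where called with the block, apart from a result that is not reported here. Alternatives were pseudocounts of 0.1 and 5, no filter, a mean of at least 10 RPKM, 2 other scalings, the replicate block and leaving out libraries.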

Additional observations from a re-analysis of the deposited data

How the results depend on the processing

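With the replicate block in place of no block, genes called between methods numbered 208 instead of 0, and small-subunit genes called numbered 1 instead of 0. In 12 unblocked alternatives both counts remained 0. The blocked count of 208 was 8 with a pseudocount of 0.1, 0 without a filter and 64 with median-ratio scaling, and 10 to 1051 when 1 number was left out. The blocked count of 1 small-subunit gene was 0 with a pseudocount of 0.1, 0 without a filter, 0 with median-ratio scaling and 6 with quantile normalization, and 0 to 5 when 1 number was left out. Between numbers, 5577 genes were called, 3411 with a mean of at least 10 RPKM, which tests fewer genes. The 13 small-subunit genes called between numbers became 8 without a filter, 23 with median-ratio scaling and 25 with quantile normalization, and 4 to 10 when 1 number was left out. Other causes were not tested. With quantile normalization the log2 fold changes of Rps4x, Rps9 and Rps16 turned to -0.043, 0.0045 and 0.042. Leaving out libraries, 12 of 28 genes changed sign at least once: Rps3 ran from -0.30 to 0.18, Rps4x from -0.70 to 0.82, Rps9 from -0.46 to 0.13, Rps10 from -0.59 to 0.24, Rps15a from -1.15 to 0.30 and Rps16 from -0.39 to 0.15. Rps18 ran from -0.40 to 0.29, Rps19 from -0.53 to 0.19, Rps24 from -1.75 to 0.16, Rps25 from -0.67 to 0.29, Rps29 from -0.36 to 0.059 and Fau from -0.49 to 0.013. The other 16, Rps27 among them, kept their direction in all alternatives run. The members' median ran from -0.37 to 0.036, above 0 only without tagmentation replicate 1. Without the block, differences between methods were hardly detectable beside the spread between numbers.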

Other observations

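Gnb2l1, which encodes the scaffold protein RACK1 on the head of the small subunit and was not in the list, had a log2 fold change of -0.24 (SE 0.31, limma adjusted p 1.00) and was not called between numbers (limma adjusted p 0.284).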
